A study of Rattus norvegicus with 6 samples.

Results

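The genes described here are 10 epithelial genes that are not part of cilia, out of 14217 genes named on the array: the membrane mucins Muc1 and Muc4, the adhesion molecules Epcam, Cdh1 and Itgb6, the channel and transporter genes Clic3, Slc44a4 and Slc14a1, the growth factor carrier Fgfbp1 and the receptor phosphatase Ptprz1. All probe sets that the platform annotation assigns to one of these genes alone were taken, 13 in all, with 2 each for Cdh1, Slc14a1 and Ptprz1. The genes were chosen with their values in the comparison of overfed with lean ovaries known, so their differences between the groups are given as a description and carry no test. RNA came from ovaries of rats taken 4.5 days after mating with lean males. The females were given liquid diets by total enteral nutrition for 28 days, the lean group 155 kcal and the overfed group 220 kcal per unit of metabolic body weight. Each of the 6 arrays held 1 pool of RNA, 3 lean and 3 overfed, and the sources used here do not give the strain, the age or how many animals a pool held. Whether pools came from separate animals is also not stated, so the errors measure the spread between pools, which may be partly technical.

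Simple epithelia hold their cells together with cadherin and desmosome junctions, cover their free surface with membrane mucins and move ions and small solutes through channels and carriers. In the rodent ovary such cells form the surface epithelium, a modified mesothelium, while the adjoining oviduct and uterus carry a taller epithelium with secretory cells and, in the oviduct, ciliated cells. Foxj1, the transcription factor that switches on the motile cilium program, and Hoxa10, which patterns the uterus and its muscle and stroma, were used as reference genes for the order of the pools. The number of epithelial cells in a pool and the amount of RNA per cell cannot be told apart in these bulk samples.

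Across the series, values were deposited as differences from the probe set's median over 6 arrays and are read as log2, so they tell pools apart but give no level, and the markers of the labelled tissue could not be checked for presence. If the values were natural logarithms, every fold below would be too small. Array medians lay between -0.00936 and 0.00989, and the SD over probe sets ran from 0.14 to 0.29, the latter in overfed pool 1. The mean over 18 hybridization control probe sets was 0.04, 0.045 and 0.51 in lean and -0.034, -0.05 and -0.237 in overfed pools 1 to 3. Every lean pool thus lay above every overfed pool in these controls, which is also the direction of the members' difference. Lean pool 3 stood furthest apart, also at 0.36 for beta-actin's 3' probe set less its 5' one, against at most 0.061 in the other pools. The part of such array differences in the members' values was not tested. With centring on the median of 6 values, the third and the fourth value of a probe set lie at the same distance on either side of 0. Where the lean values all lie above the overfed ones, these are the lowest lean and the highest overfed value.

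In what follows, 3 values of a group are those of pools 1, 2 and 3. The 10 genes were lower in the overfed pools at the level of group means, by a median of -1.25 on the log2 scale and a range of -1.70 to -0.47 over 1 representative probe set per gene, beside a median of 0.007 over all 14217 genes. The 3 lean values lay above the 3 overfed values in 8 of the 10 genes and in 10 of the 13 probe sets, and Epcam and Cdh1 overlapped. Among all 31042 tested probe sets, 5.33% had every lean value above every overfed value and 7.35% the reverse. A difference of at least 1.5-fold was reached by 8 genes, and 1.32% of all probe sets were lower by as much. A difference of at least 2-fold was reached by 6 genes (Slc14a1, Itgb6, Fgfbp1, Clic3, Slc44a4 and Ptprz1), and 0.432% of all probe sets were lower by as much. Since the members were chosen on this contrast, nothing is read from these shares. In limma's fit across all probe sets, 0 of 31042 passed an adjusted p of 0.05 (0.0%), with a smallest adjusted p of 0.623, and 2070 (6.67%) had an unadjusted p under 0.05. With a variance trend and a robust prior, limma's adjusted count was 1.

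**Figure D1:**
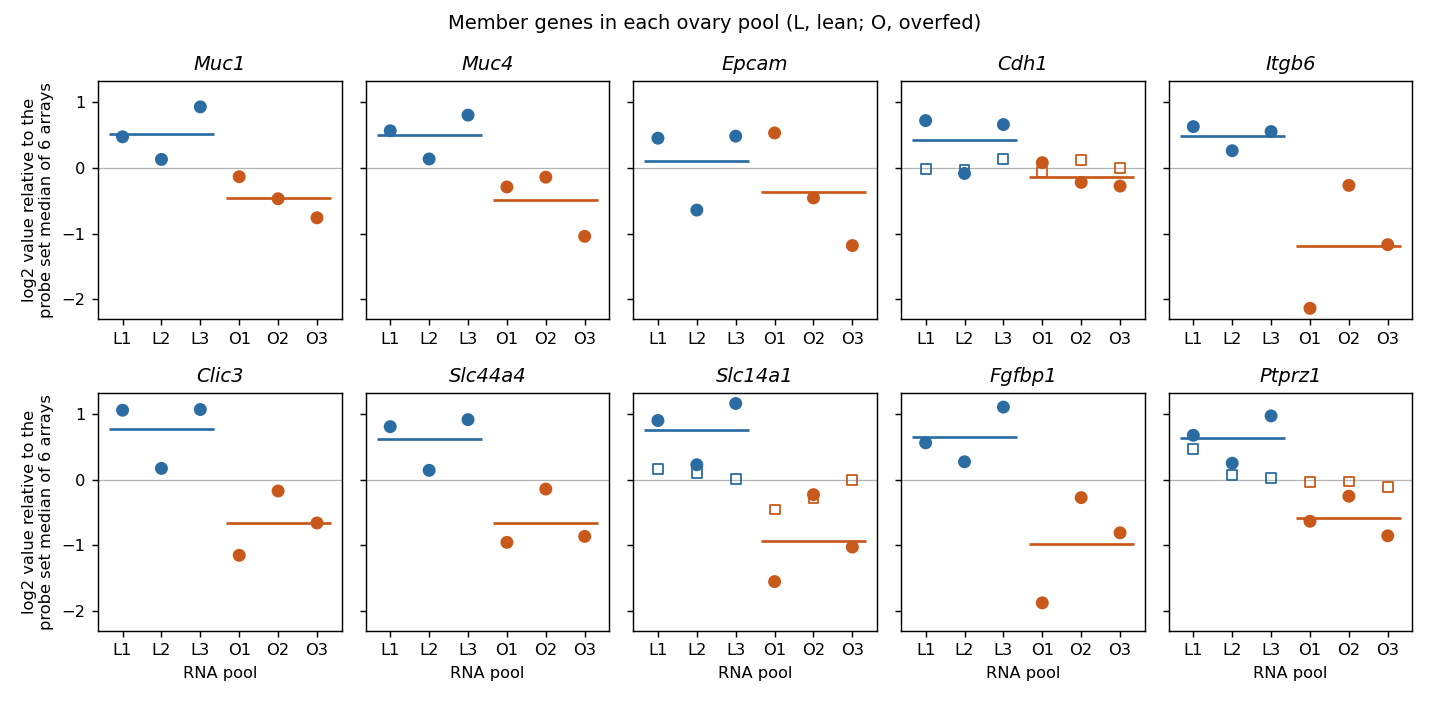
Relative log2 values (vertical axis) of the 10 genes in lean pools 1 to 3 (L1 to L3, blue) and overfed pools 1 to 3 (O1 to O3, orange); filled circles are the representative probe set, open squares the other probe set of Cdh1, Slc14a1 and Ptprz1, and lines are group means of the representative. Lean and overfed circles overlap in Epcam and Cdh1 and are apart in the other 8 genes, most widely in Fgfbp1, where 0.55 separates the groups.

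Promoter sequences were looked at as a description of genes that had been chosen with their values over the pools known. Of the 10 genes, 8 had a RefSeq promoter on the build GRCr8 (Muc1, Muc4, Epcam, Itgb6, Clic3, Slc44a4, Slc14a1 and Fgfbp1), and the 250 bases before the annotated start were searched. The E-box CACCTG, the sequence bound by the zinc finger repressors of Cdh1, was found on either strand in 5 of the 8, against 15.9% of 33469 promoters of the same length. It was one of 17 short motifs tried and was picked after the matches had been seen. These 5 promoters are shown 5' to 3' in the direction of the gene, with CACCTG or its reverse complement in capitals.
Muc1, chr2:176933500-176933749, plus strand: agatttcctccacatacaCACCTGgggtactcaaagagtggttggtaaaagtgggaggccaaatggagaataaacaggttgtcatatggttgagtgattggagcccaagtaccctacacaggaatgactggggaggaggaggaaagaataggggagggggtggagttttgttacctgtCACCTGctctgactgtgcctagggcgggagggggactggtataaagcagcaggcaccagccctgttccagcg
Epcam, chr6:12649679-12649928, minus strand: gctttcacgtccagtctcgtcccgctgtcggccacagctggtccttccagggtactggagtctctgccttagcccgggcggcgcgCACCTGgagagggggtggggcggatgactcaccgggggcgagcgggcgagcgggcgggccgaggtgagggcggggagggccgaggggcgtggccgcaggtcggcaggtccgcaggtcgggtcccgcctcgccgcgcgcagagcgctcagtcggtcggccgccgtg
Itgb6, chr3:65530334-65530583, minus strand: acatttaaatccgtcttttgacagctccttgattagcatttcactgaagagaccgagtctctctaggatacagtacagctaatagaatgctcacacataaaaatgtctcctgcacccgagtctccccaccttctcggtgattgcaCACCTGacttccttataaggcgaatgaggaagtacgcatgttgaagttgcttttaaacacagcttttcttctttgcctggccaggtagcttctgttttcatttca
Slc44a4, chr20:3923855-3924104, minus strand: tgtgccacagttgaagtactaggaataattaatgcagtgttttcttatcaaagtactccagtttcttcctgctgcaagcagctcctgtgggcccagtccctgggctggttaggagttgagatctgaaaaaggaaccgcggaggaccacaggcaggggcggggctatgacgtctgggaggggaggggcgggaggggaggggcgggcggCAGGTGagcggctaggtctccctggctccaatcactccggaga
Fgfbp1, chr14:71318633-71318882, plus strand: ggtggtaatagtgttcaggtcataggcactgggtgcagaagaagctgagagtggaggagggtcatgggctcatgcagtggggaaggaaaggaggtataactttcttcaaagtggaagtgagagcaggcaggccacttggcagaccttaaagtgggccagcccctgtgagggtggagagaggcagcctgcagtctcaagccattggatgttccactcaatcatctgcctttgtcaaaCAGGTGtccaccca
Muc1 held the motif at 232 and 72 bases before its start, Epcam at 165, Itgb6 at 105, Slc44a4 at 43 and Fgfbp1 at 14. The GC content of these windows ran from 43.2% in Itgb6 to 75.6% in Epcam. Clic3 is shown as well because it alone of the 8 held GTTGCC, the half-site of the RFX factors of ciliated cells. Of all promoters 9.89% hold it, so 1 of 8 is near the share over all and nothing is read from it. It too was among the 17 motifs tried and was picked after the matches had been seen. The motif is in capitals, on either strand.
Clic3, chr3:28670005-28670254, plus strand: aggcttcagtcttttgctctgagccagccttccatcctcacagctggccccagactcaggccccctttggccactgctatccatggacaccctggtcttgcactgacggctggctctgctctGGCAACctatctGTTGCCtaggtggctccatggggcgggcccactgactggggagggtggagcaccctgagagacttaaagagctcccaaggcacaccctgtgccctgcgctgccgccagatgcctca
The forkhead motif GTAAACA, found in 3.21% of all promoters, was in none of the 8 windows, which says only that these letters are not there. CANNTG, which includes CACCTG, was in 7 of the 8 and in 65.5% of all promoters.

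Muc1 is a mucin anchored in the apical membrane that lubricates and shields the luminal surface of the reproductive tract. It had relative log2 values of 0.48, 0.13 and 0.93 in lean and -0.13, -0.47 and -0.76 in overfed pools. The groups did not overlap, lean pool 3 was the highest and overfed pool 3 the lowest, and the gap between lean pool 2 and overfed pool 1 was 0.26. The difference of means was -0.97 (SE 0.23), or 1.95-fold lower in overfed pools. Muc4, a membrane mucin that also binds the receptor ErbB2, had 0.57, 0.14 and 0.81 in lean and -0.29, -0.14 and -1.04 in overfed pools. Its groups were apart by 0.28, and its difference was -0.99 (SE 0.27), or 1.99-fold. Both mucins shared their highest pool, lean pool 3, and their lowest, overfed pool 3. With 1 pool left out, Muc1 stayed between -1.16 and -0.76 and Muc4 between -1.18 and -0.72.

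Epcam, a cell adhesion molecule of epithelia that binds its like on neighbouring cells, was the member with the least separation. The lean pools had 0.46, -0.64 and 0.49, and the overfed pools 0.54, -0.46 and -1.18. Overfed pool 1 was the highest of all 6 pools and lean pool 2 the second lowest, so that the groups overlapped over most of their range. The difference of -0.47 (SE 0.47) was about the size of its error. Leaving out overfed pool 1 gave -0.92 and leaving out lean pool 2 gave -0.84. It was -0.29 when lean pool 1 was omitted, -0.28 for lean pool 3 and -0.06 for overfed pool 3. Cdh1 encodes E-cadherin, the calcium-dependent adhesion molecule of epithelial adherens junctions. Its RefSeq mRNA probe set had 0.72, -0.08 and 0.66 in lean and 0.08, -0.22 and -0.27 in overfed pools. Lean pool 2 fell among the overfed pools, the difference was -0.57 (SE 0.22), or 1.49-fold lower in overfed pools, and with 1 pool left out it ran from -0.83 (without lean pool 2) to -0.43. The other Cdh1 probe set, which has no accession in the annotation, stayed between -0.06 and 0.14 in all pools. Its difference of -0.01 (SE 0.09) turned to 0.0036 with quantile normalization, so of the 10 genes 9 were lower at every probe set there and 10 in the deposited values.

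Itgb6 encodes the integrin subunit that pairs with the alpha-v subunit on epithelial cells and activates latent TGF-beta. Its values were 0.63, 0.26 and 0.56 in lean and -2.14, -0.26 and -1.17 in overfed pools. The lean pools lay close together (SD 0.19) and the overfed pools far apart (SD 0.94), with overfed pool 1 the lowest. The difference was -1.68 (SE 0.42), or 3.19-fold, and -1.20 without overfed pool 1. Fgfbp1, a secreted protein that releases fibroblast growth factors from the matrix, had 0.56, 0.27 and 1.11 in lean and -1.88, -0.27 and -0.81 in overfed pools. Like Itgb6, it had widely spread overfed pools (SD 0.82) with overfed pool 1 the lowest, but its lean pools lay less close together (SD 0.42). Its groups were apart by 0.55, the widest gap of the 10 genes. The difference was -1.64 (SE 0.41), or 3.11-fold, with -1.19 when overfed pool 1 was left out and -0.96 when lean pool 3 was left out too.

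Slc14a1 encodes the urea transporter UT-B. Its representative probe set had 0.90, 0.23 and 1.16 in lean and -1.55, -0.23 and -1.03 in overfed pools. This was the largest difference of the 10 genes, at -1.70 (SE 0.36), or 3.25-fold lower in overfed pools. The other Slc14a1 probe set was at 0.16, 0.10 and 0.01 in lean and -0.45, -0.27 and -0.01 in overfed pools. Both had every lean pool above every overfed pool, but the second gave -0.33 (SE 0.13), with a gap of 0.013, and put lean pool 3 lowest of the lean pools instead of highest. Clic3, a chloride intracellular channel protein, had 1.06, 0.17 and 1.07 in lean and -1.15, -0.17 and -0.66 in overfed pools. Its difference of -1.43 (SE 0.32), or 2.69-fold, spanned a gap of 0.34. Slc44a4, a choline transporter-like protein that carries thiamine pyrophosphate, had 0.81, 0.14 and 0.92 in lean and -0.96, -0.14 and -0.86 in overfed pools. It differed by -1.28 (SE 0.28), or 2.42-fold, with a gap of 0.29. In Slc14a1, Clic3 and Slc44a4 alike, pool 2 of each diet lay next to 0 and the other pools further out.

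Ptprz1 is a receptor tyrosine phosphatase that binds pleiotrophin and is best known from glia. Its RefSeq mRNA probe set had 0.68, 0.25 and 0.97 in lean and -0.63, -0.25 and -0.86 in overfed pools. The groups were apart by 0.50 and the difference was -1.21 (SE 0.22), or 2.32-fold, between -1.41 and -1.05 with 1 pool left out. The other Ptprz1 probe set had 0.47, 0.07 and 0.03 against -0.04, -0.03 and -0.11, which gave -0.25 (SE 0.13) and a gap of 0.056. It changed to -0.11 without lean pool 1, the pool that held most of its difference. Of 7 glial and nerve markers measured, 1 was lower at an unadjusted p under 0.05 in limma and 0 were higher. The lower one was the ubiquitin hydrolase Uchl1 (-0.54, limma unadjusted p = 0.0413, adjusted p = 0.727), with groups that overlapped. The count of lower markers was 0 when lean pool 3, overfed pool 1 or overfed pool 3 was omitted, and with array weights. The other markers included the glial proteins S100b (-0.20) and Fabp7 (-0.15) and the filament protein Gfap (0.07). Their mean over 7 genes ran from -0.02 to 0.18 in lean pools and from -0.19 to 0.01 in overfed pools.

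**Figure D2:**
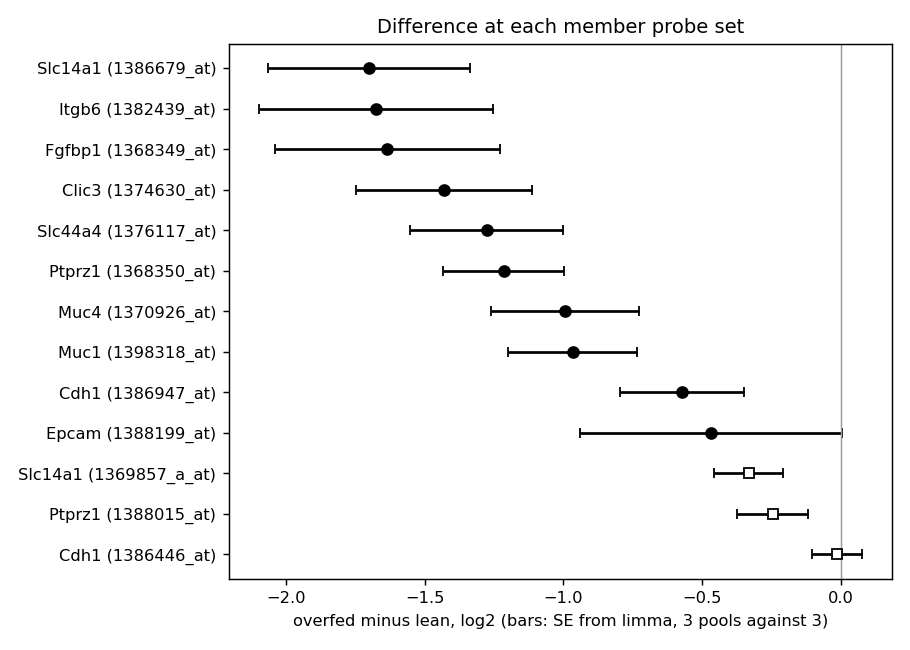
Overfed minus lean on the log2 scale (horizontal axis) for the 13 member probe sets, with limma's SE over 3 against 3 pools as bars; filled circles are representative probe sets and open squares the second probe sets. The second probe sets of Slc14a1, Ptprz1 and Cdh1 lie at -0.33, -0.25 and -0.01, nearer to 0 than the first ones at -1.70, -1.21 and -0.57.

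Within the lean group the 10 genes ranked the pools alike. Lean pool 2 was the lowest lean pool in 10 of 10 genes, which 28.8% of all probe sets share, and lean pool 3 the highest in 8, the exceptions being Cdh1 and Itgb6 with lean pool 1. Over probe sets, lean pool 2 was the lowest in 11 of 13. The second probe sets of Slc14a1 and Ptprz1 had lean pool 3 lowest. Foxj1 (0.58, 0.21 and 0.95) and Hoxa10 (0.46, -3.18 and 1.23) have the same lean order, pool 3 over pool 1 over pool 2, so the lean pools do not separate the reference genes. That order was found in 8 of the 10 genes and in 18.0% of all probe sets. The choice of the members used the pool order as well, so nothing is read from such shares, here or for the overfed pools. The overfed pools do separate the reference genes. Foxj1 had -0.72, -0.21 and -0.50 in overfed pools 1 to 3, with pool 1 the lowest, and Hoxa10 had 3.04, -0.46 and -2.57, with pool 1 the highest. Foxj1 was apart between the groups, with a difference of -1.06 (SE 0.21), and Hoxa10 overlapped, with a difference of 0.50 (SE 1.60).

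Over the overfed pools the genes fell into 3 orders. Itgb6, Clic3, Slc44a4, Slc14a1 and Fgfbp1 had the order of Foxj1, pool 2 over pool 3 over pool 1, which 17.8% of all probe sets have. Overfed pool 1 was thus lowest in 5 genes and overfed pool 3 in the other 5, as in 39.7% and 31.0% of all probe sets. Overfed pool 1 was below overfed pool 3 by -1.07 in Fgfbp1, -0.97 in Itgb6, -0.53 in Slc14a1, -0.49 in Clic3 and -0.09 in Slc44a4, against -0.22 in Foxj1. Muc1, Epcam and Cdh1 had the order of Hoxa10, pool 1 over pool 2 over pool 3, as had 17.4% of all probe sets. In these genes overfed pool 1 exceeded pool 3 by 0.63, 1.72 and 0.36, against 5.61 in Hoxa10. Muc4 and Ptprz1 lay between, with pool 2 over pool 1 over pool 3 and pool 1 above pool 3 by 0.75 and 0.22. Neighbouring pools in these orders have single values and no error of their own.

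**Figure D3:**
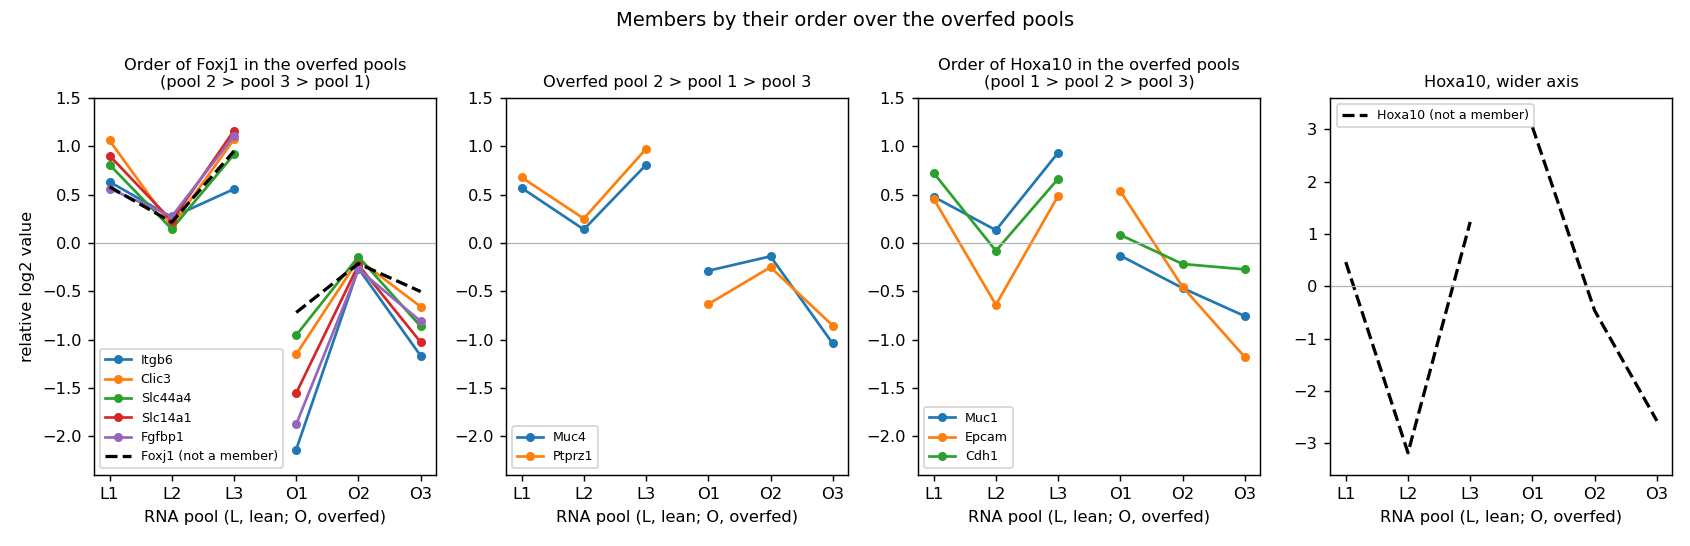
Relative log2 values (vertical axis) in lean pools L1 to L3 and overfed pools O1 to O3 for the representative probe sets, split by their order over the overfed pools, with Foxj1 (dashed, first panel) and Hoxa10 (dashed, last panel, wider axis); lines only join the pools of one gene and imply no sequence. Lean pool 2 is the lowest lean point in all 10 genes, whereas overfed pool 1 ranges from -2.14 in Itgb6 to 0.54 in Epcam.

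Over all 6 pools, Clic3, Slc44a4, Slc14a1 and Fgfbp1 had exactly the order of Foxj1, which 0.815% of all probe sets have. That order places every lean pool above every overfed pool, as the choice of the members favours. Among the 1654 probe sets with that separation, 15.3% had it, and nothing is read from the members' count. With quantile normalization this count was 2. None of the 13 member probe sets had the full order of Hoxa10, which 0.715% of all probe sets have. In that order the groups overlap, so the 10 member probe sets whose groups were apart could not have it. Epcam differs from it by an exchange of lean pool 2 and overfed pool 3. The root mean square difference of Epcam over the 6 pools was 0.71 from Foxj1 and 1.59 from Hoxa10, whose values span a far wider range. For the other 9 genes the distance from Foxj1 ran from 0.155 (Ptprz1) to 0.66 (Itgb6). The E-box promoters shown above belong to genes of both kinds, Muc1 and Epcam on one side and Itgb6, Slc44a4 and Fgfbp1 on the other.

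The median of the 10 genes was 0.65, 0.16 and 0.92 in lean and -0.79, -0.24 and -0.86 in overfed pools. Ptprz1 and Slc44a4 were nearest to this median profile, with root mean square differences of 0.079 and 0.0995 over the 6 pools, and Epcam (0.68) and Itgb6 (0.58) were farthest. Among genes that are no members, the 10 nearest to the profile were Tppp3 (0.078), Cfap126 (0.087), Elmod1 (0.14), Hoxa3l1, Ccdc78, Jhy, Tekt4, Rab37, Foxj1 (0.15) and Trpv2 (0.16). Of these, Tppp3, Cfap126, Tekt4 and Foxj1 were markers of motile cilia. Each of the 10 had every lean pool above every overfed pool, as the profile they were picked by has. The choice of the members used the pool order beside that of Foxj1, so nothing is read from the likeness to Foxj1 and other cilium markers. The list of motile cilium markers had 11 of 14 measured genes lower at an unadjusted p under 0.05 and 0 higher in limma, where 3.36% of all probe sets were lower and 3.31% higher. Foxj1 is in this list and among the 11. Like the other lists, it was drawn up with earlier results of these data known, so nothing is read from its count. The 3 of lowest p were Ccdc40 (-0.65), a factor for the assembly of ciliary dynein arms, Foxj1 and Cfap126 (-1.09). The mean over the genes of this list was 0.45, 0.19 and 0.63 in the lean pools and -1.0, -0.16 and -0.62 for overfed. Both this mean and the members' median were higher in every lean pool than in any overfed pool. Within the overfed group the members did not all follow these markers, whose mean was lowest in overfed pool 1. Itgb6, Clic3, Slc44a4, Slc14a1 and Fgfbp1 were also lowest in that pool, whereas Muc1, Epcam and Cdh1 were highest there. Muc4 and Ptprz1 were lowest in overfed pool 3. The part of ciliated cells in the members' difference was not tested.

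Other genes with the roles of the members were counted from lists, 1 probe set per gene, by limma's unadjusted p under 0.05. No gene of any list passed the adjusted threshold. Of 37 other junction and adhesion genes, 30 had a lower mean in overfed pools and 7 a higher one, with a median of -0.24. Of the 37, 8 were lower at the unadjusted p and 0 higher, in a series where 3.36% of probe sets were lower. Desmoplakin (Dsp), which ties desmosomes to keratin filaments, had 0.85, 0.22 and 1.24 in lean and -0.22, -0.405 and -0.57 in overfed pools. Its groups were apart, with the order of Muc1 over all 6 pools and a difference of -1.17 (SE 0.25, limma unadjusted p = 0.00199, adjusted p = 0.623). The second Dsp probe set was at -0.12 and overlapped. Plakophilin 1 (Pkp1), a desmosome plaque protein, was at -0.80 (unadjusted p = 0.0155) and the membrane serine protease St14 at -0.43 (unadjusted p = 0.0179). The groups overlapped in Pkp1. The other genes of the 8 were the epithelial transcription factors Ehf (-0.57) and Elf3 (-0.63), the adhesion molecule Nectin4 (-0.43), the protease inhibitor Spint2 (-0.35) and the plakophilin Pkp2 (-0.30), named after their values were seen. The count was 4 when lean pool 1 was omitted, 15 for lean pool 2, 2 for lean pool 3, 3 for overfed pool 3 and 7 when lean pool 3 and overfed pool 1 were both left out.

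Other channels and transporters were split, 18 lower and 13 higher of 31, with a median of -0.03. By the unadjusted p, 6 were lower and 0 higher, a count that fell to 3 when either lean pool 3 or overfed pool 3 was left out, to 2 when lean pool 3 and overfed pool 1 both were, and to 3 with a variance trend and robust prior. The peptide transporter Slc15a2 was at -0.99 (SE 0.30), the potassium channel subunit Kcne3 at -0.85 (SE 0.26) and the phosphate transporter Slc34a2 at -0.74 (SE 0.26), all with a limma adjusted p of at least 0.647. The groups overlapped in Slc15a2 and Slc34a2. In Kcne3 they were apart by 0.0012, and its second probe set was at -0.33. The nearest relatives of the members did not share their size, with Clic1 at -0.0043, Clic4 at -0.08 and Clic5 at -0.22 beside Clic3, Slc44a1 at 0.22 and Slc44a2 at -0.08 beside Slc44a4, and Slc14a2 at -0.15 beside Slc14a1. No difference between a member and its relatives was tested.

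Of 19 other mucins and mucin-building genes measured, 3 were lower and 1 higher by the unadjusted p. The glycosyltransferases Galnt3 (-0.53, SE 0.14, unadjusted p = 0.00664) and Galnt6 (-0.20) and the mucin chaperone Agr2 (-0.53) were lower, and the secreted mucin Muc2 was higher (0.22, unadjusted p = 0.0492). The groups overlapped in Agr2. The count of lower genes was 1 without lean pool 1 and 1 without overfed pool 3. The gel-forming mucins Muc5ac (0.05) and Muc5b (0.04) and the membrane mucin Muc13 (-0.07) lay near 0, where the array signal over background is unknown.

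Among 28 binding and signalling partners of the members, 0 were lower and 1 higher by the unadjusted p, with a median of -0.05. The count of lower genes was 3 when lean pool 2 was omitted, 2 for lean pool 1, 1 for overfed pool 1 and 1 with quantile normalization. The higher one was the growth factor receptor Egfr, at 0.49 (SE 0.11, unadjusted p = 0.0035, adjusted p = 0.623) with -0.28, -0.30 and -0.11 in lean and 0.22, 0.46 and 0.11 in overfed pools. Its other probe sets gave 0.42 and -0.04. The claudin Cldn7, a partner of Epcam, was at -0.53 (unadjusted p = 0.0533) and the catenin Ctnnd1, which binds Cdh1, at -0.24. Itgav, the partner of Itgb6, was at 0.07, the Muc4 partner Erbb2 at -0.42 and pleiotrophin (Ptn), the ligand of Ptprz1, at -0.06. Of the repressors of Cdh1, zinc finger and helix-loop-helix factors that bind E-boxes, 6 were measured, and 0 passed the unadjusted threshold in either direction. All 6 had a higher mean in overfed pools, with a median of 0.16, and of 0.10 without overfed pool 1. Their mean over genes was 0.40 in overfed pool 1 and -0.08 to 0.08 in the other pools. The differences included Zeb1 at 0.17, Snai1 at 0.15 and Twist1 at 0.12, with groups that overlapped in all 3 and a second Twist1 probe set at -0.07.

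Markers of cell types that the ovary samples could hold were set beside the members. Of 16 markers of mesothelium and ovarian surface epithelium, 2 were lower and 2 higher by the unadjusted p. The count of lower genes was 0 when lean pool 1, lean pool 3 or overfed pool 3 was omitted, 4 when lean pool 2 or overfed pool 1 was, 1 for overfed pool 2, and 1 with quantile normalization or array weights. The keratins Krt19 (-0.80) and Krt18 (-0.72), which other simple epithelia also express, were lower, whereas Aldh1a1 (0.67) and Lrrn4 (0.37) were higher and the mesothelial antigen Msln was at 0.07. Their mean over 16 genes ran from -0.15 to 0.30 in lean pools and from -0.09 to 0.22 in overfed pools. Of 14 markers of oviduct and uterine epithelium, 3 were lower and 0 higher, namely Lcn2 (-1.60), the claudin Cldn10 (-0.91) and the transcription factor Pax8 (-0.77). That count was 6 without overfed pool 1, 1 without lean pool 3 and 1 without overfed pool 3. The mean over all 14 was 0.27, -0.12 and 0.46 in lean and 0.24, -0.22 and -0.41 in overfed pools, in the overfed order of Muc1, Epcam and Cdh1. Of the named genes Pax8 had that order, but Lcn2 (-0.94, -0.46 and -0.40) and Cldn10 (-0.84, 0.10 and -0.42) were lowest in overfed pool 1. The groups of Cldn10 and Pax8 overlapped. The mean of the mesothelium and surface epithelium markers also had the overfed order of Muc1, Epcam and Cdh1, at 0.22, -0.0025 and -0.09. So had the means of the other mucins, junction genes, channels and partners. Single genes of a list can differ from its mean. In the mucin list Cd24 had 0.77, -0.66 and -1.44 in overfed pools, whereas Galnt3, Galnt6 and Agr2 were highest in overfed pool 2. The part of either epithelium in the members' difference was not tested.

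Smooth muscle markers had lean pool 2 lowest as well, with means over 10 genes of 0.32, -0.89 and 0.63 in lean and 0.88, -0.33 and -0.52 in overfed pools, and 0 of the 10 passed the unadjusted threshold in either direction. The 3 of lowest p were the coactivator Myocd (0.34), Lmod1 (-0.32) and the muscle actin Acta2 (-0.37). Mullerian duct patterning genes, with Hoxa10 among 14 measured, had means of 0.21, -0.85 and 0.38 in lean and 1.22, -0.16 and -0.65 in overfed pools. Of these, 0 were lower and 2 higher by the unadjusted p, the corepressor Dach1 (0.34) and Wnt4 (0.33), with Wnt5a next at 0.20. The count of lower genes was 1 when lean pool 2 was omitted. Muc1, Epcam and Cdh1 had the same overfed order as both lists, and all 10 members had, like both lists, their lowest lean value in pool 2. Of 8 urothelium markers, with a median of -0.07, 1 was lower (Upk1a at -0.72) and 0 were higher, and Krt20 was at -0.165 and Upk3a at 0.11. Of 14 granulosa and luteal markers, with a median of 0.03, 1 was higher and 0 were lower. The higher one was the activin subunit Inhba at 0.64, with groups that overlapped, and Amh was at 0.33 and Fst at 0.15. Of 8 adipocyte markers, with a median of -0.14, 0 passed in either direction, with Cidec at -0.54, Fabp4 at -0.45 and Lep at -0.14. The count of lower adipocyte markers was 2 when lean pool 2 was omitted, 1 for overfed pool 1 and 2 with the pool number as a block. Leukocyte markers had a median of 0.20, with 4 of 12 higher and 1 lower. Among them were the neutrophil protein S100a9 (1.12, with groups that overlapped), the macrophage receptor Mrc1 (0.40) and the B cell antigen Ms4a1 (-0.33). The count of lower leukocyte markers was 2 when overfed pool 3 was omitted. The part of these cells in the members' difference was not tested.

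**Figure D4:**
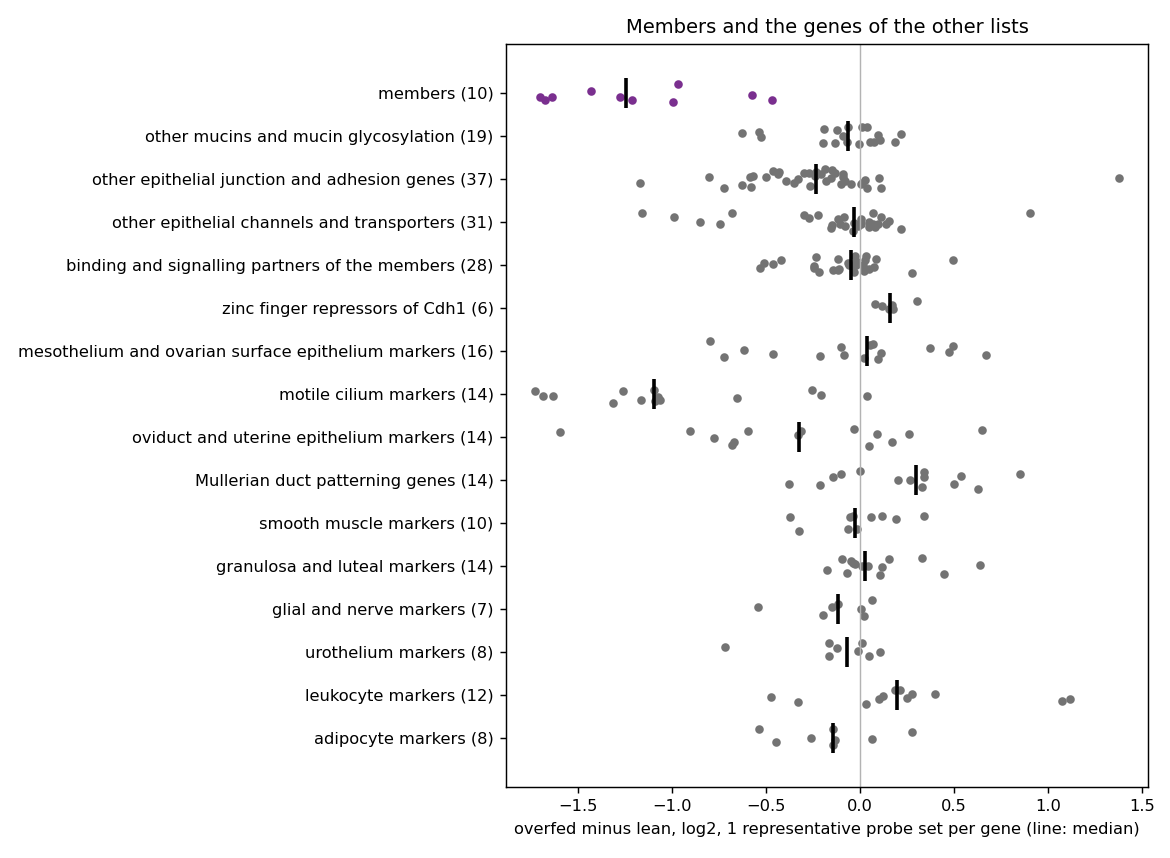
Overfed minus lean on the log2 scale (horizontal axis) for each gene of the members (purple) and of the other lists (grey), 1 representative probe set per gene, with the list's median as a black line and the number of genes in brackets; vertical scatter within a list is only for legibility. The members lie between -1.70 and -0.47 with a median of -1.25, the motile cilium markers have a median of -1.09, and the junction genes have one of -0.24.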

How the data were processed

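Labelled RNA of 6 ovary pools, 3 lean and 3 overfed, was hybridized to Affymetrix arrays. The deposited values are log values, taken as log2, and each probe set's median over the arrays was 0 within 1e-06 in 31099 of 31099 probe sets. The submitters' processing notes name GCOS with no version. The sources used here do not give the probe set summary, normalization, filter or base of the logarithm. Depth does not apply to arrays, and the number of pools limits the precision.

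Without the 57 array controls, 31042 probe sets entered the test; 20826 had 1 gene name, 436 several and 9780 none in the platform annotation. Entrez identifiers, 20758 of them found in a RefSeq table, gave current symbols. A gene's representative probe set was chosen by RefSeq mRNA accession, then probe set type, then lowest identifier. limma 3.58.1 under R 4.3.3 (lmFit, eBayes, 2 groups, two-sided, Benjamini-Hochberg over all tested probe sets, threshold 0.05) gave differences, SE and p-values. The fit was tested on simulated data. Distances between profiles, counts and figures were made in Python 3.11.15 with pandas 2.3.3 and matplotlib 3.10.9.

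The members and lists were chosen with earlier results of these data known. Named were all members, the reference genes, the 3 genes of lowest unadjusted p in each list and the 10 genes nearest in profile, and other genes were named for a comparison with a member or after their values were seen. Alternatives were a block for the pool number, array weights, a robust prior with a variance trend, centring of arrays, quantile normalization, leaving pools out, averaging a gene's probe sets and a filter on SD. A filter on dim probe sets was not possible, since levels are not in the values. The counts of list genes under each alternative were added after seeing the data.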

Additional observations from a re-analysis of the deposited data

How the results depend on the processing

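The median difference of the 10 genes was -1.25, and it stayed between -1.46 and -1.09 with 1 pool left out, at -0.97 without lean pool 3 and overfed pool 1, and at -1.13 with quantile normalization. The count of probe sets past limma's adjusted threshold, 0, was 1 with a trend and robust prior and 62 without the 50% of probe sets of smaller SD, 61 of them lower in overfed pools. The SD over all 6 pools holds the group difference itself, so that filter favours probe sets that differ and its count is no test of the members. The cause of the other change was not tested. The 4 probe sets in the full pool order of Foxj1 were 2 with quantile normalization, and the cause was not tested. The second Cdh1 probe set, at -0.01, turned to 0.0036 with quantile normalization, 0.036 with array weights and 0.080 without lean pool 3 and overfed pool 1, and ran from -0.062 to 0.0375 with 1 pool left out. The mean of both probe sets was -1.02 for Slc14a1, -0.73 for Ptprz1 and -0.29 for Cdh1, against -1.70, -1.21 and -0.57 for the representative. Of the members' values under the alternatives, 151 moved by less than the spread between pools, 3 by more and 5 changed sign, all at the second Cdh1 probe set. The 151 include the variance trend and the block, which cannot change a difference of means here. The spread was the SD within groups, a wide measure. Epcam, at -0.47 and at -0.06 without overfed pool 3, is among the 151.

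The pool number as a block left the count at 0, with 1757 probe sets at an unadjusted p under 0.05 against 2070, and lowered the counts of lower mucin-building genes and oviduct and uterine markers from 3 to 1 each, of mesothelium markers from 2 to 1 and of glial markers from 1 to 0, and raised that of adipocyte markers from 0 to 2. The labels do not say whether pools of the same number were paired. Deviations from the group means correlated at 0.10, 0.17 and -0.28 for pools 1, 2 and 3. Between pools of different number they ran from -0.42 to 0.40. With 3 pools in each group these values cannot decide whether pools were paired. Signal over background is unknown, so values near 0 may come from probe sets without signal.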
